A study of Marchantia polymorpha and Lactuca sativa with 27 samples.

Results

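The genes described here are lettuce genes that were high in shoots kept without phosphate and stayed near the full-medium level in shoots kept without nitrate. A gene was taken when its level without phosphate exceeded that in full medium by at least 2 on a log2 scale, its level without nitrate lay within 0.5 of full medium on the same scale, and its lowest no-phosphate library lay above every other library. Levels are CPM, counts scaled to 1000000 counts of the library, and 1 CPM was added to each group mean before the log2 ratio was taken, so that a difference of 2 is a 4-fold ratio of these sums. The rule picked 105 of the 48985 genes in the lettuce table, and of 68340 genes in the series as a whole. The genes were thus chosen by their CPM in these same 9 libraries. For that reason the sizes of the rise and the flatness without nitrate are given below as descriptions and not as tests.

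The shoots came from seedlings of the red-leaved Lactuca sativa line labelled Red fire. The seedlings were 4 days old when moved to liquid medium, where they stayed for 7 days under continuous light. One group of 3 libraries had 0 mM phosphate, another group of 3 had 0 mM nitrate, and the control group of 3 had full medium. In full medium phosphate stood at 2 mM and nitrate at 10 mM. The nitrate level of the no-phosphate group and the phosphate level of the no-nitrate group are not recorded. All 3 groups share this cultivar, age and light, and no mutant or transgene is labelled in lettuce. The labels do not say how many seedlings went into a library or whether libraries came from separate cultures, so spreads between libraries may be technical.

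Plants take up phosphorus as inorganic phosphate and sense its supply inside the cell. In Arabidopsis, transcription factors of the PHR group switch on phosphate-starvation genes, and SPX proteins hold these factors back while phosphate is plentiful. The genes switched on in that species include phosphate transporters, secreted acid phosphatases that free phosphate from organic compounds, and enzymes that replace phospholipids with sulfolipids and galactolipids. Nitrate is sensed through other proteins, and the pathways for both nutrients are known to be linked. The lettuce table gives only identifiers, and neither it nor the name table used here pairs them with gene names, so none of the 105 genes can be assigned to any of these roles and only 2 identifiers are printed. The shoot label could not be checked against leaf markers for the same reason. In whole shoots, more cells of a type and more RNA per cell cannot be told apart.

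The media are named below as the labels give them. In the wild-type liverwort of the same series, MpPTB8 (Mp4g19700), of a phosphate transporter family, had 22.5 ± 1.94 CPM in libraries labelled no phosphate, 331 ± 72.1 CPM in those labelled no nitrate and 31.7 ± 7.83 CPM in full medium (SD, n = 3 each). MpAMT2.4 (Mp8g18510), of an ammonium transporter family, had 42.0 ± 6.59 CPM in libraries labelled no phosphate, 15.6 ± 8.83 CPM in those labelled no nitrate and 0.304 ± 0.0492 CPM in full medium. The phosphate transporter gene was thus highest where nitrate is labelled as missing, and the ammonium transporter gene where phosphate is. Whether the media labels of the liverwort are exchanged was not tested. No lettuce gene could be looked up for a similar check, so the same holds for the lettuce labels.

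Lettuce libraries held 18857111 to 22642271 counts, so 1 count was worth 0.0442 to 0.053 CPM. On the first principal component of all tested genes, which held 58.3% of the variance, the no-phosphate libraries lay at 70.7, 66.6 and 65.6, the no-nitrate libraries at -3.6, -15.2 and -23.3, and the full-medium columns at -59.2, -65.2 and -36.4. The third full-medium column thus stood apart from its partners, on the side of the starved libraries, and the main values that use full medium are also given without it.

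Together the 105 genes took up a small but sharply separated part of each shoot library. They held 1.35%, 1.35% and 1.43% of all counts in the no-phosphate libraries, 0.16%, 0.16% and 0.158% in the no-nitrate libraries, and 0.139%, 0.148% and 0.16% in the full-medium columns. The groups did not overlap between no phosphate and either other medium, as the rule requires of each gene, while the share in the third full-medium column was as high as in the no-nitrate libraries. As group means this was 1.38 ± 0.047% without phosphate, 0.159 ± 0.00123% without nitrate and 0.149 ± 0.0105% in full medium (SD, n = 3 each), or 0.143% over the 2 full-medium columns left without the third. The 5 members with the most counts held 31.7% of the members' CPM without phosphate, the top 10 held 47.6% and the top 20 held 69.8%. CPM is not divided by gene length, so this order ranks counts and not transcript numbers.

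**Figure D1:**
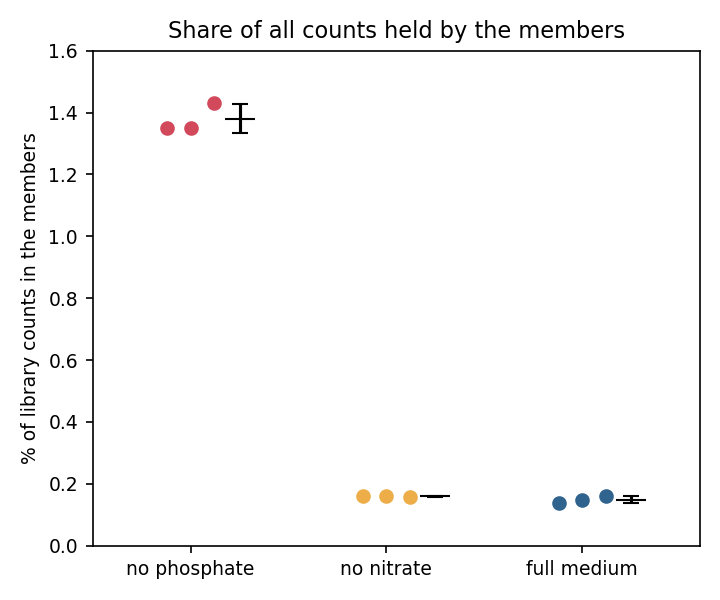
Percentage of each library's counts that fell on the 105 member genes (points, 1 per library), with the group mean ± SD beside them (n = 3 each). The no-phosphate libraries lie at 1.35 to 1.43%, and the no-nitrate and full-medium libraries lie at 0.139 to 0.16%.

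The member with the most counts without phosphate was LOC111888849. It had 1158, 1090 and 1150 CPM without phosphate, 11.8, 14.2 and 13.9 CPM without nitrate, and 5.65, 13.8 and 23.8 CPM in full medium. The no-phosphate libraries agree closely while the full-medium columns are spread 4.21-fold, with the no-nitrate libraries inside that spread. The ratio of the means was 78.6 over full medium and 85.4 over no nitrate. Its log2 difference of 6.20 between no phosphate and full medium was 5.84 without the first full-medium column and 6.72 without the third.

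The largest log2 difference belonged to LOC111906857, at 7.31. This gene was almost silent outside the no-phosphate libraries, with 165, 162 and 187 CPM without phosphate, 0.158, 0.194 and 0.102 CPM without nitrate, and 0, 0.149 and 0.105 CPM in full medium. Over the 3 libraries of each group only 9 counts were found without nitrate and 5 in full medium, so the ratio of the means, 2023 over full medium, rests on those few counts. The edgeR estimate, which uses a small prior count in place of 1 CPM, was 10.85 on the log2 scale (SE 0.217).

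The gene in the next row of the table, whose identifier carries the next number, was also a member, with the tenth-largest log2 difference (4.82, and 5.24 without the third full-medium column). It had 337, 306 and 313 CPM without phosphate, 9.85, 8.55 and 8.72 CPM without nitrate, and 6.88, 8.07 and 16.1 CPM in full medium. Unlike its neighbour it was clearly detected in every library, with 602 counts over the full-medium columns. How the authors' counting treated reads that match both genes is not given, so the division between them is uncertain if their sequences are alike.

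The member with the second-largest difference (log2 6.39) had 145, 139 and 151 CPM without phosphate, 0.369, 0.194 and 0.612 CPM without nitrate, and 0.668, 0.548 and 0.998 CPM in full medium. Here the no-nitrate libraries overlap the lower end of the full-medium range, and both groups are below 1 CPM. The fourth-largest (log2 5.94) had 68.7, 48.8 and 63.6 CPM without phosphate and 0 counts in all 6 other libraries. Against a floor of 3 counts over the full-medium columns it was at least 1178-fold higher without phosphate.

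That gene was one of several with nothing to measure outside the no-phosphate libraries. In full medium 6 members had 0 counts in every column, and without nitrate 4 had 0 counts in every library, with 3 members at 0 in both groups. The rise of these 6 over full medium was at least 73.9-fold to at least 1178-fold, against the same floor of 3 counts over the group. A count of 0 in all 3 full-medium columns allows a level of up to 0.0512 CPM, for counting error only.

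Members fell into genes close to silence and genes already in use. In full medium 41 of the 105 had a mean under 1 CPM, 29 had 1 to 10 CPM, 34 had 10 to 100 CPM and 1 had more. Without nitrate the same classes held 42, 28, 34 and 1 genes. Without phosphate no member was under 1 CPM, 21 had 1 to 10 CPM, 51 had 10 to 100 CPM and 33 had 100 CPM or more. The median of the members' mean levels was 42.0 CPM without phosphate, 4.59 CPM without nitrate and 3.39 CPM in full medium.

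The near-silent class had the largest median ratio and the smallest median level without phosphate. Members under 1 CPM in full medium had a median of 9.86 CPM without phosphate (range 3.64 to 172 CPM), against 0.269 CPM without nitrate and 0.104 CPM in full medium. Their median log2 difference from full medium was 3.12 with 1 CPM added, and 6.32 by the edgeR estimate, since the added 1 CPM holds down the ratio of low genes. Members at 10 to 100 CPM in full medium had a median of 281 CPM without phosphate, against 26.9 CPM without nitrate and 25.6 CPM in full medium. Their median log2 difference was 2.53 by the first measure and 2.52 by the second, so the choice of measure matters for the near-silent genes and not for these.

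Among members in use in full medium, the clearest large rises had tight libraries in every group. The member with the third-most counts had 816, 853 and 917 CPM without phosphate, 47.0, 41.2 and 45.8 CPM without nitrate, and 40.3, 41.0 and 39.1 CPM in full medium. The fourth-most had 718, 732 and 837 CPM without phosphate, 19.7, 18.9 and 19.3 CPM without nitrate, and 13.8, 16.8 and 18.2 CPM in full medium. In both genes each no-nitrate library lay above all full-medium columns, by little beside the gap to no phosphate. The single member above 100 CPM in full medium had a lower mean without nitrate than in full medium, with overlap. It had 904, 922 and 984 CPM without phosphate, 139, 159 and 151 CPM without nitrate, and 153, 173 and 178 CPM in full medium.

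**Figure D2:**
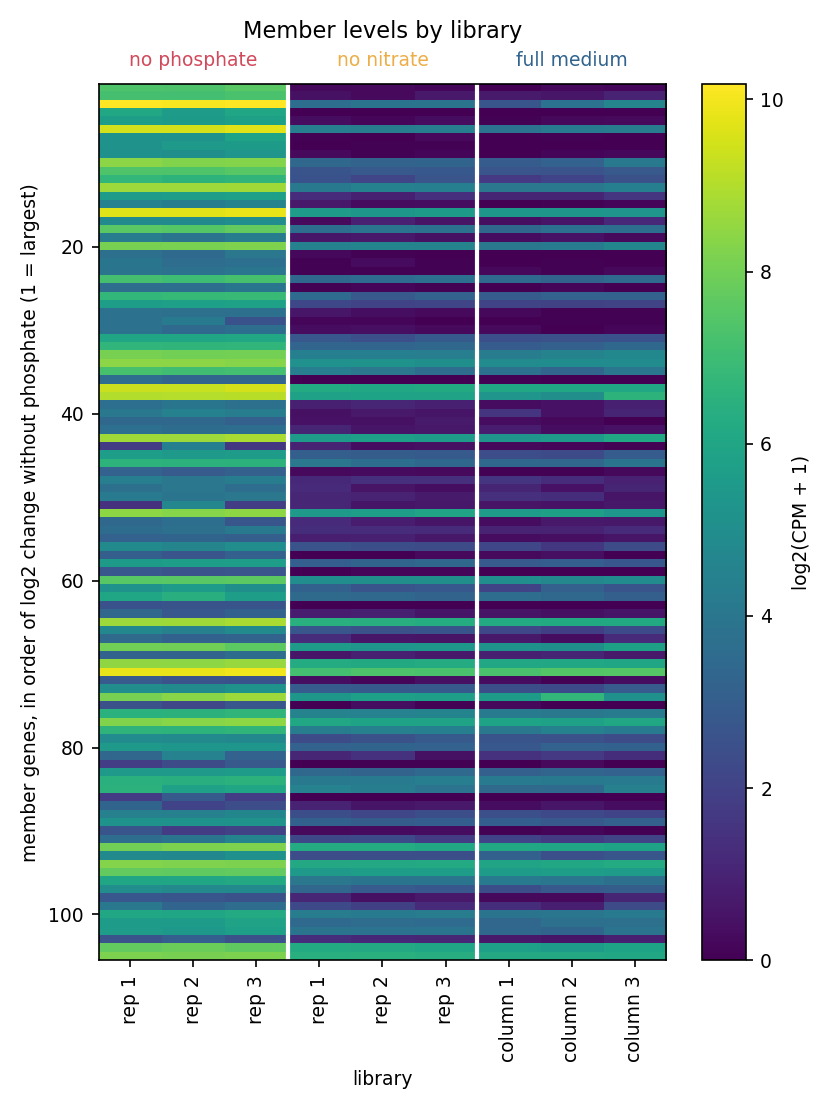
Levels of the 105 members (rows, in order of their log2 difference between no phosphate and full medium) in the 9 lettuce libraries (columns, with no phosphate at the left, then no nitrate and full medium), as log2(CPM + 1). Every row is brighter in the no-phosphate libraries than in the rest, while near-silent rows and rows already in use in full medium occur along the whole order.

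Over all members the log2 difference between no phosphate and full medium ran from 2.02 to 7.31 with a median of 2.77, against a median of 0.02 over the 23366 genes that passed the filter on low counts. Without the third full-medium column the members' median was 2.81. It was at least 4 in 17 members, at least 3 in 45 and under 3 in 60. Between no phosphate and no nitrate, which does not use the full-medium columns, it ran from 1.56 to 7.23 with a median of 2.65. All 105 members passed the filter, which their no-phosphate libraries alone were enough to ensure. In an edgeR quasi-likelihood fit over all tested genes, with Benjamini-Hochberg adjusted p under 0.05, all 105 were higher without phosphate than in full medium. Of all tested genes 22.8% were higher in that comparison, and 46.4% were called in either direction. Without the third full-medium column 103 of the 105 were called higher. Over all genes that fit called 5917 higher, against 5324 in the main fit. Against no nitrate 103 of the 105 were higher, as were 13.3% of all tested genes. No phosphate lay above both other media without overlap in 17.2% of all tested genes, a condition that the rule imposed on every member. Since the rule used these contrasts, the members' counts carry no weight beyond the choice.

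The gap between the no-phosphate libraries and the rest comes from the same CPM that the rule used, so it is partly set by the choice. The shares below were not counted over all tested genes. In 96 of the 105 the lowest no-phosphate library was at least 3 times the highest of the 6 others, and in 42 it was at least 10 times as high. In only 1 member was this ratio under 2, at 1.49.

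The genes without phosphate differed in what they did without nitrate, and the members are those at the flat end of a continuous range. Of the 236 lettuce genes at or above a log2 difference of 2 without phosphate, 105 lay within the no-nitrate band of 0.5, 126 lay above the band but under 2, 4 were at 2 or more in both media and 1 was below the band. Members were thus 44.5% of these genes, and 14 of the 20 and 33 of the 50 with the largest rises. The demand that libraries must not overlap removed 0 genes. With the media exchanged, 1 gene met the rule for no nitrate, out of 15 genes at 2 or more without nitrate. With the direction turned round, 15 genes were low without phosphate only. Both differences share the full-medium columns, so they are set side by side here and not correlated.

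**Figure D3:**
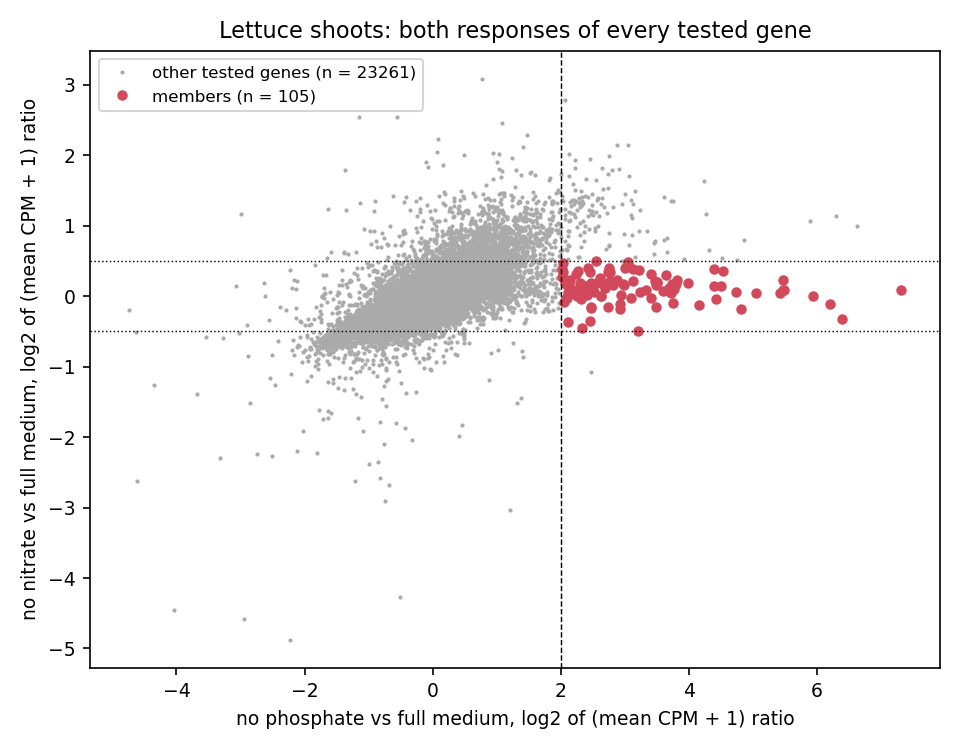
Log2 differences of the 23366 tested lettuce genes between no phosphate and full medium (horizontal) and between no nitrate and full medium (vertical), with 1 CPM added to each mean. The 105 members (red) fill the strip right of 2 and within 0.5 of 0, and other genes right of 2 lie almost all above that strip.

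The edges of the rule run through a crowded region. The members just inside the fold limit had log2 differences of 2.02, 2.02 and 2.03, and genes just outside it that met all other conditions had 1.99, 1.98 and 1.97. At the upper nitrate edge the first member inside (log2 0.50) had 24.8 CPM without phosphate, 5.20 CPM without nitrate and 3.39 CPM in full medium. The first gene outside had 59.9, 10.1 and 6.83 CPM in the same 3 media. The second outside had 164, 7.68 and 5.09 CPM, and its log2 difference between no phosphate and full medium was 4.76. At the lower edge the first member inside stood at -0.49 and the only gene outside at -1.07, with 181 CPM without phosphate, 14.5 CPM without nitrate and 31.6 CPM in full medium. In all, 11 members had a log2 difference under 2.1 without phosphate and 8 had one over 0.4 in size without nitrate.

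Within the band the members were not centred on 0. Their log2 difference between no nitrate and full medium ran from -0.49 to 0.50 with a median of 0.13, with 80 members above 0, 22 below and 3 at 0, while the median over all tested genes was 0.01 and 51.7% were above 0. Of the 64 members with at least 1 CPM in full medium, 50 were above 0, with a median of 0.15. In 23 of the 105 all no-nitrate libraries lay above all full-medium columns, and in 1 they all lay below. Over all tested genes these shares were 16.6% and 15.3%. Without the third full-medium column 40 members lay above and 4 below, against 24.7% of all tested genes in each direction. The edgeR fit called 6 members higher and 0 lower without nitrate. Their log2 differences were 0.28 to 0.50 with 1 CPM added, the scale that the rule limits, and not by the edgeR estimate. Over all tested genes 6.9% were higher, 8.36% lower and 15.3% called in either direction. DESeq2 called 7 members in either direction, and 3641 genes over all genes, against 3566 in the edgeR fit. The median difference was 0.18 and the number called was 19 without the third full-medium column, the number called was 2 without no-nitrate replicate 2, and it was 3 when only the 2 groups compared were fitted. The calls over all genes moved the same way, to 5035, 2176 and 2544 in the same order. The rule limits this difference, and the full-medium columns that enter it were also used to pick the members. Of the 236 genes at a log2 difference of 2 or more without phosphate, 130 lay above the band and 1 below. The members' values here thus describe the choice.

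For near-silent members the band says little, because the added 1 CPM hides changes in low genes. By the edgeR estimate 71 members were within 0.5 of full medium without nitrate, 27 were above and 7 below. Of the 27 above, 26 had a full-medium mean under 1 CPM, as did 5 of the 7 below.

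Agreement between the no-phosphate libraries, which the rule bounds only through the lowest of them, was close for most members. The highest of the 3 libraries was under 1.5 times the lowest in 86 members, 1.5 to 2 times in 10 and at least 2 times in 9, with a median of 1.17. The median coefficient of variation was 7.97%, against 7.02% over the 17769 tested genes whose no-phosphate mean was at least that of the lowest member. Replicate 3 was the highest of the no-phosphate libraries in 57 members, replicate 1 in 31 and replicate 2 in 17, or 54.3%, 29.5% and 16.2% of members against 33.4%, 39.3% and 27.3% of all tested genes. Ties were given to the replicate that comes first.

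A pair of members owed their mean to replicate 2. The member ranked 51 by log2 difference had 1.73, 25.2 and 2.61 CPM without phosphate, with 0.399 to 1.16 CPM in the 6 other libraries. The member ranked 44 had 2.42, 19.9 and 2.08 CPM without phosphate, with 0.0525 to 1.00 CPM in the others. These are the members that edgeR did not call between no phosphate and no nitrate. Without no-phosphate replicate 2 the count called in that comparison was 105 of 105, and the rule then picked 103 genes, of which 99 were among the 105. Over the 23366 tested genes only 2 were at least 4-fold above both partners in replicate 2 on the (CPM + 1) scale, and both are these members. At 2-fold, 4 members and 27 tested genes stood out in replicate 2, against 0 members and 9 tested genes in replicate 1 and 0 members and 3 tested genes in replicate 3.

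The full-medium columns differed more. The third column was the highest of the 3 in 53 members, the first in 28 and the second in 24, or 50.5%, 26.7% and 22.9% of members against 36.0%, 29.6% and 34.4% of all tested genes. Ties were given to the first column, in the members and over all tested genes. The 28 thus include the 6 members with 0 counts in every full-medium column, so the first and second columns are not ranked here. In 17 members (16.2% of them) the third column exceeded the mean of its partners by over 0.5 on the log2 scale, as it did in 5.4% of all tested genes. In 3 members it fell short by as much, against 5.85% of all tested genes. One such member, the sixth by counts without phosphate, had 518, 525 and 536 CPM without phosphate, 55.6, 58.9 and 57.0 CPM without nitrate, and 38.8, 31.5 and 94.1 CPM in full medium. The second column could also stand apart: another member had 274, 332 and 411 CPM without phosphate, 41.3, 52.7 and 49.9 CPM without nitrate, and 45.4, 105 and 33.3 CPM in full medium. Whether the position of the third column on the first principal component plays a part in these values was not tested.

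**Figure D4:**
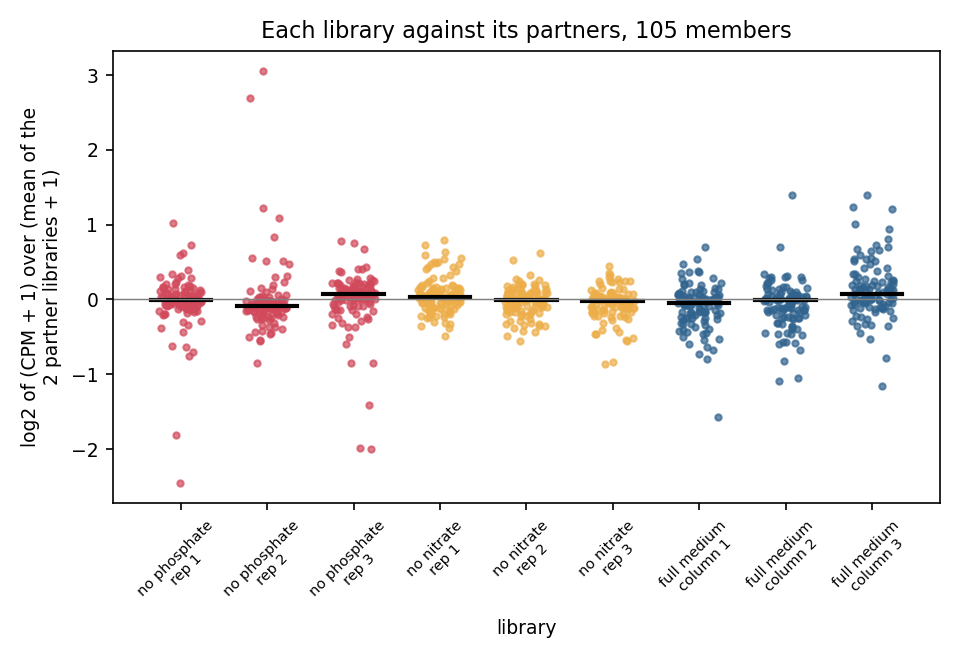
For each of the 9 libraries, the log2 of (CPM + 1) over (mean of the other 2 libraries of its group + 1) in the 105 members (points), with the median (bar). The 2 points near 3 in no-phosphate replicate 2 are the members ranked 51 and 44, and the third full-medium column has more points above 0.5 than the other columns.

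Which genes were picked depended little in number, but more in identity, on single libraries. Leaving out each library in turn gave 99 to 117 genes, and 77 of the 105 were picked in all 9 runs. The third full-medium column mattered most: without it 99 genes were picked, with 16 of the 105 lost and 10 others gained. Without no-nitrate replicate 1, 117 genes were picked, with 0 lost and 12 gained.

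The same rule was applied to the other species of the series. In lettuce it picked 105 genes for no phosphate and, with the media exchanged, 1 gene for no nitrate, while 4 genes were at 2 or more in both. In wild-type Marchantia polymorpha, whole plants of the liverwort strain Tak-1 moved to these media at 7 days of age for 5 days, 8 genes met it for the libraries labelled no phosphate and 36 met its mirror image for those labelled no nitrate, while 138 were at 2 or more in both. Species, tissue, age and treatment time differ together between these counts, and the difference was not tested. The liverwort counts of 8 and 36 also rest on the media labels as given, and would trade places if those labels were exchanged.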

How the data were processed

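Shoot RNA was made into directional libraries after poly(A) enrichment, per the labels' protocols. STAR 2.7 and DESeq2 are named, with no role, per the submitters' processing notes; the counting program, its strand setting and the genome build are not given in the sources used here. The deposited values are counts of reads per gene, 1 whole-number column per library, per the file headers, with no normalization by the authors found.

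Groups came from the titles. The full-medium columns carry other numbers than the titles, so they were used as replicates without a number; 0 columns were left unmapped. Replicate pairs differed by more than sampling noise. The chi-square per degree of freedom was 5.06 to 10.2 in pairs without the third full-medium column. It was 23.0 and 27.9 in the pairs with that column. The rule was applied to CPM from plain column sums. One edgeR model (4.0.16, R 4.3.3; filterByExpr, TMM factors of 0.966 to 1.03, common coefficient of variation 0.123) covered all 9 lettuce libraries, was tested on simulated data, and gave two-sided robust quasi-likelihood F-tests with Benjamini-Hochberg adjustment over 23366 genes. SE follows from the log2 estimate and F. No adjusted p of a member is printed. Precision limits cover counting error only.

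The 2 printed identifiers are, by rule, the member with the most CPM without phosphate and the one with the largest log2 difference among the rest; the other members described singly were chosen after their values were seen. Members, comparisons and rules were chosen with earlier results of these data known. The liverwort genes MpPTB8 and MpAMT2.4 were matched by locus number to a name table of the assembly MpTak2_v7.1. This assumes that the counts and the name table number genes alike.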

Additional observations from a re-analysis of the deposited data

How the results depend on the processing

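Of 151 recomputed values 131 stayed within 1.5 times the reported count or, for medians, shares and single genes, within 1 SD between libraries. The other 20 moved further. Counts and shares cannot change sign, and the rule held the log2 differences between no phosphate and full medium above 0. Only the members' median between no nitrate and full medium was free to change sign, and it did not. The number of member genes ranged from 78 with a no-nitrate band of 0.25 to 148 with a band of 1, and a pseudocount of 0.5 or 2 CPM gave 120 or 93. At 0.5 CPM 95 of the 105 were kept and 25 gained. TMM or DESeq2 scaling gave 106. The median log2 difference between no phosphate and full medium was 3.23 with 0.5 CPM and 2.46 with 2 CPM, and 2.77 to 2.85 leaving out 1 library. That between no nitrate and full medium was 0.10 with 2 CPM and 0.10 to 0.18 leaving out 1 library. Members called without nitrate numbered 3 when only the 2 groups compared were fitted (2544 over all genes), and 2 to 19 leaving out 1 library. Over all genes, 3566 were called between no nitrate and full medium, and 1898 to 5035 leaving out 1 library (1898 without the second full-medium column, 1984 and 2176 without no-nitrate replicates 1 and 2). Between no phosphate and no nitrate 6319 were called, and 4134 to 8215 leaving out 1 library, the lowest without no-nitrate replicate 2. The causes were not tested. Same-numbered no-phosphate and no-nitrate libraries had deviations correlated at 0.0262, 0.0504 and 0.0586, so the numbers were not taken to pair them; each library correlated best with its own number except replicate 1 without nitrate. The replicate block over these 6 libraries called 7788 genes and 103 members. A fit to the same 6 libraries without the block called 8017 genes and 103 members. Members with few counts are limited by depth: the lowest had 230 counts over the no-phosphate libraries.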

Other observations

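The rows of the lettuce table are not in random order of identifier, since 46.4% of adjacent rows carry numbers at most 20 apart, but whether the order follows the genome is not given. Of the 105 members, 10 (9.52%) had another member within 10 rows, against 4.75% of the other tested genes. In adjacent rows there were 2 members (1.9%), against 0.512% of the other tested genes with a member in an adjacent row. These 2 are the neighbours described above, so this share rests on a single pair. The 10 members within 10 rows also fell into separate pairs. Of the 208 other rows directly next to a member, 119 were tested. Their median log2 difference between no phosphate and full medium was 0.00, against 0.02 over all tested genes. The edgeR fit called 33 of these 119 higher (27.7%) and 29 lower (24.4%) without phosphate, against 22.8% and 23.7% of all tested genes, and 2 of them (1.68%) reached a log2 difference of 2, against 0.563% of the 23261 tested genes that are no members.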
